A study of Homo sapiens with 4 samples.

Results

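The enzymes that make serine and pass its carbon into the folate cycle were followed in the RNA of parental SUM159 cells and of NOS2KO SUM159 clones. The set consists of PHGDH, PSAT1, PSPH, SHMT1, SHMT2, MTHFD1, MTHFD2, MTHFD1L, MTHFD2L and ALDH1L2, which are 10 of the 57500 genes in the count files, found by matching each Ensembl identifier to its GENCODE 29 symbol. The data comprised 1 library of parental cells, described in the labels only as a control, and 1 library from each of 3 NOS2KO clones, numbered 1, 5 and 6. SUM159 is a mesenchymal triple-negative breast cancer cell line that the study uses as a model of metaplastic breast cancer (MpBC). NOS2 encodes inducible nitric oxide synthase (iNOS). To obtain the clones, cells received a double nickase plasmid directed at NOS2, were selected with puromycin, and were then chosen for their iNOS protein and their nitrite and nitrate output. All 4 cultures grew in the same serum-containing medium, and whether the parental cells received a control plasmid or puromycin is not given in the sources used here. The comparison asks how the transcriptome differs between parental and NOS2KO cells.

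Counts on genes summed to 90467395 in the parental library and to between 97362293 and 122171287 in the clones. NOS2 itself had 2 counts in parental cells, against 3 for clone 1, 1 for clone 6 and 18 for the library labelled clone 5, so its mRNA does not check the labels, and the wording "labelled clone 5" is kept. The mesenchymal markers VIM, CD44, FN1, ZEB1 and AXL were detected in every library. ESR1, PGR and EPCAM were under 1 CPM (counts scaled to a common library size with the TMM method) in every library, while ERBB2 lay between 48.3 and 106.2 CPM. Of 6 markers of leukocytes, endothelium and adipocytes, 3 (CD3E, ADIPOQ and PLIN1) were under 1 CPM everywhere. Their summed level was 21.5 CPM in the parental library and 51.1 to 116.8 CPM in the clones. In parental cells most of it came from the endothelial gene PECAM1 (16.1 CPM) and in each clone from the leukocyte gene PTPRC (41.7 to 105.4 CPM), and their part in the results was not tested. In bulk RNA a smaller share of expressing cells and a lower level per cell cannot be told apart.

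Cells build serine from a glycolytic intermediate in 3 steps, catalysed in turn by PHGDH, PSAT1 and PSPH in the cytosol. Serine hydroxymethyltransferase then splits serine into glycine and a carbon unit bound to tetrahydrofolate, in the cytosol through SHMT1 and in mitochondria through SHMT2. In mitochondria the unit is oxidised by MTHFD2 or its relative MTHFD2L and released as formate by MTHFD1L, or lost as carbon dioxide through ALDH1L2. Formate leaves the mitochondria and is loaded back onto folate by the trifunctional cytosolic enzyme MTHFD1, which supplies purine and thymidylate synthesis. PHGDH is amplified or highly expressed in a share of breast cancers, and MTHFD2 and SHMT2 are among the metabolic enzymes most often raised in tumours. The transcription factor ATF4, acting through a composite C/EBP-ATF element, is a known activator of serine synthesis genes, and MYC and NFE2L2 (NRF2) are also known to act on this pathway.

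Promoter sequences of some of these genes are shown as a description, and a link between their letters and the levels was not tested. RefSeq promoter sequences on GRCh38.p14 were at hand for 7 of the 10 genes (11 promoters in all), and PSPH, SHMT2 and ALDH1L2 were not in that table. The 250 bases before each start were searched on both strands for the core of the C/EBP-ATF composite element (TGATGNAA), the E-box bound by MYC (CACGTG) and the core of the antioxidant response element bound by NRF2 (TGACNNNGC). Below, 5′ to 3′ on the plus strand, capitals mark matches to TGATGNAA or CACGTG, with MTHFD1L at chr6:150866236-150866485, MTHFD2 at chr2:74198365-74198614, PSAT1 at chr9:78296875-78297124 and MTHFD1 at chr14:64388103-64388352.
MTHFD1L: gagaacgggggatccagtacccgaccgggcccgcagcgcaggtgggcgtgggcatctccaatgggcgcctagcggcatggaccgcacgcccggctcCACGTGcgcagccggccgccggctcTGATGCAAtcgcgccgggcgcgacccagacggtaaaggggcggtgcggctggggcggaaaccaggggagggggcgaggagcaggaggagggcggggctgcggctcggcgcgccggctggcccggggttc
MTHFD2: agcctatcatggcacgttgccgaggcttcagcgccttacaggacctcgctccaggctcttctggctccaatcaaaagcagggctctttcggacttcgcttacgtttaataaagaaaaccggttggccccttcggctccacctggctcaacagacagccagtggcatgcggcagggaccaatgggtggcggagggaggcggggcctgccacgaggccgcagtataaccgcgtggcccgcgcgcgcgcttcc
PSAT1: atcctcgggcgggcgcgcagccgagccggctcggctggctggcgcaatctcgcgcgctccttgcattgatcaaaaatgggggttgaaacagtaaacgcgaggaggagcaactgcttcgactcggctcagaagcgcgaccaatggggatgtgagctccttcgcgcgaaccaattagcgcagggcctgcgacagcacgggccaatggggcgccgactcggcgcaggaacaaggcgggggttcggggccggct
MTHFD1: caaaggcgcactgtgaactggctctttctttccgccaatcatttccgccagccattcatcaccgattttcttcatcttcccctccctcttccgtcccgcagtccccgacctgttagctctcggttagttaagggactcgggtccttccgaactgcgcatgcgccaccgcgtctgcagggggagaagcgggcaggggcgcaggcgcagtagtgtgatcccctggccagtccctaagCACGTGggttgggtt

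MTHFD1L held both a TGATGCAA, 129 bases before this start, and a CACGTG 154 bases before it, and a second annotated MTHFD1L promoter, 39 bases upstream, overlaps the same letters. The windows of the other 2 of 4 annotated MTHFD1L promoters (chr6:150866083-150866332 and chr6:151006758-151007007) held no match. In MTHFD1 a CACGTG lay 15 bases before the RefSeq start. The RefSeq starts used here differ from the starts of the counted genes. The shown MTHFD1 and MTHFD1L windows lie inside the counted genes, which begin at 64388031 and 150865549. The MTHFD2 window overlaps its gene, which begins at 74198562. None of the 3 motifs matched in the windows of PSAT1, MTHFD2, PHGDH, SHMT1 or MTHFD2L, which says only that those letters are not in these windows. Among all 35114 promoters of this length, 3.14% held TGATGNAA, 6.35% held CACGTG and 10.9% held TGACNNNGC. A match is a description of the letters and not a binding site.

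The mRNA of 4 enzymes, PSAT1, SHMT2, MTHFD2 and MTHFD1L, was lower in all 3 NOS2KO clones by more than 1 on the log2 scale. One of them makes serine and the other 3 handle its carbon in mitochondria. Their fitted levels in the clones were 10.3-fold lower than in the parental library for PSAT1, 5.50-fold for MTHFD2, 4.81-fold for MTHFD1L and 3.54-fold for SHMT2. PHGDH and PSPH were also lower in every clone but by a smaller and more variable amount, SHMT1 was higher in every clone, and the parental values of MTHFD1, MTHFD2L and ALDH1L2 lay inside the range of the clones. The plot of levels by library shows the parental value above all clones for 6 genes, and 30.5% of all 22511 genes tested had the same order. The parental value lay below all clones for SHMT1, as for 28.6% of the genes tested.

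**Figure D1:**
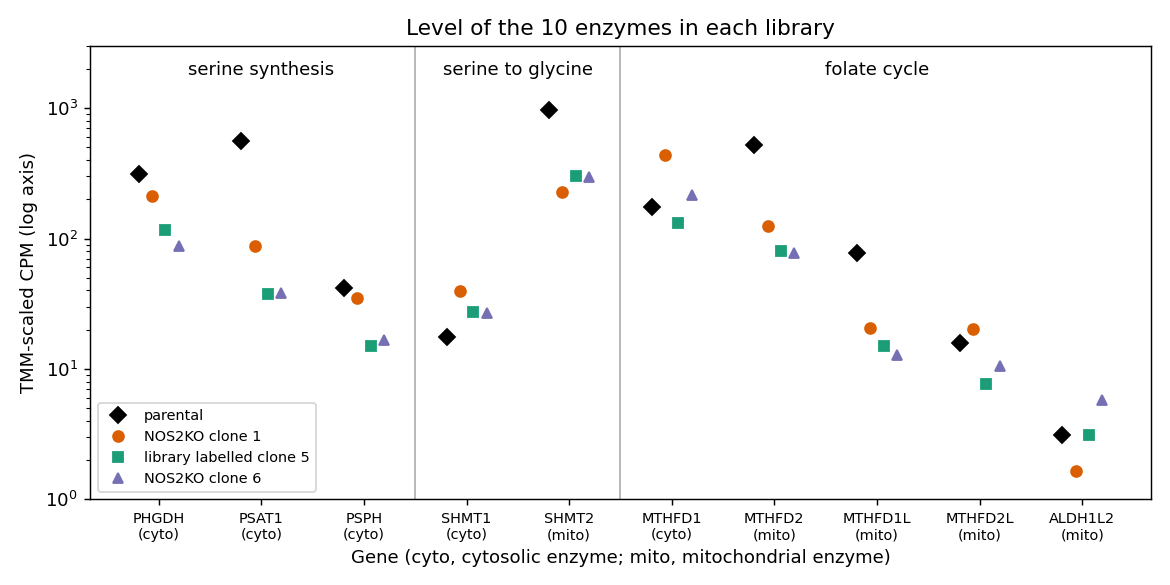
Level of each of the 10 enzymes in each library, as TMM-scaled CPM on a log axis, with genes grouped by step and each point standing for 1 library. The black parental diamond lies far above the 3 clones for PSAT1, SHMT2, MTHFD2 and MTHFD1L, at 562.9 CPM against 37.7 to 87.8 CPM in the case of PSAT1, and below them for SHMT1.

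The test was edgeR's quasi-likelihood test of the 3 clones against the parental cells, in which a negative log2 fold change means a lower level in the clones. The criterion took its limits from the study's volcano plot of AP-1-regulated genes, a p under 0.05 with a log2 fold change beyond 1. The study used a Wald test and does not say whether that p was adjusted. Here it was edgeR's unadjusted p, applied to all genes tested. By this criterion PSAT1, SHMT2, MTHFD2 and MTHFD1L differed, which is 4 of 10 (40.0%), all lower. The 10 were chosen with earlier results of these data known, so this share is only a description. Across all genes tested the same criterion called 5.34% lower and 4.24% higher. At an adjusted p under 0.05 (edgeR with Benjamini-Hochberg adjustment over all genes) none of the 10 was called, beside 0.00444% of all genes. At an unadjusted p under 0.05, 4 of the 10 were called, beside 11.5% of all genes. DESeq2's Wald test called the same 4 enzymes at an adjusted p under 0.05, beside 3.18% of its genes called lower and 3.26% called higher. With 1 parental library, the spread was estimated from the clones and taken to apply to parental cells as well. An exact permutation test of 1 against 3 libraries reaches at best a p of 0.25. The median log2 fold change was -1.04 over the 10 genes, 0.0956 over all genes tested and -0.0427 over genes that reached 10 CPM in any library. It was -0.92 over the cytosolic and -1.82 over the mitochondrial enzymes. The cytosolic enzymes ranged from -3.37 (PSAT1) to 0.85 (SHMT1). The mitochondrial ones ranged from -2.46 (MTHFD2) to 0.16 (ALDH1L2), so the compartments overlapped.

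PHGDH (ENSG00000092621, chromosome 1 of GRCh38 from 119659798 to 119744215, plus strand) encodes phosphoglycerate dehydrogenase, the committing enzyme of serine synthesis. It had 311.0 CPM in parental cells, against 212.9 for clone 1, 88.1 for clone 6 and 115.4 for the library labelled clone 5. The clones were all below the parental library, and clone 1 lay nearest to it. The mean of the clones was 138.8 ± 65.6 CPM (SD, n = 3), a log2 fold change of -1.16 (standard error 0.56). The adjusted p was 0.484 in edgeR after Benjamini-Hochberg adjustment and 0.372 in DESeq2, over a range of 0.128 to 0.797 in 11 alternatives. The difference thus did not pass either test against the spread among the clones. Without clone 1 the log2 fold change was -1.61, and PHGDH then met the criterion of p and fold, as 7.34% of the genes tested in that fit did in the lower direction.

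PSAT1 (ENSG00000135069, chromosome 9 from 78297143 to 78330093, plus strand) encodes phosphoserine aminotransferase, which uses glutamate to aminate the product of PHGDH. It was read by 50885 counts in parental cells, against 10067 for clone 1, 3747 for clone 6 and 4015 for the library labelled clone 5. In the same order these correspond to 562.9, 87.8, 38.0 and 37.7 CPM. All 3 clones were far below the parental library, and clone 1 was above the other clones. Relative to parental cells, the log2 ratio was -2.68 for clone 1 (95% limits -2.71 and -2.65), -3.90 for the library labelled clone 5 (limits -3.95 and -3.86) and -3.89 for clone 6 (limits -3.94 and -3.84). The limits are exact Clopper-Pearson ones and cover counting error only. The fitted log2 fold change was -3.37 (standard error 0.61), with an adjusted p of 0.275 in edgeR after Benjamini-Hochberg adjustment and 0.000153 in DESeq2. Over 11 alternatives the adjusted p ran from 0.000153 to 0.726. By the fitted log2 fold change PSAT1 ranked number 49 from the lowest among the 10709 genes that reached 10 CPM in any library.

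PSPH (ENSG00000146733, chromosome 7 from 56011051 to 56051604, minus strand) encodes the phosphatase that releases free serine. It had 42.1 CPM in parental cells, against 35.0 for clone 1, 16.6 for clone 6 and 14.9 for the library labelled clone 5. Clone 1 was close to the parental library and the other clones were well below it, and clone 1 was the highest clone for PHGDH and PSAT1 too. The mean of the clones was 22.2 ± 11.1 CPM (SD, n = 3) and the log2 fold change -0.92 (standard error 0.58). Its adjusted p was 0.563 in edgeR after Benjamini-Hochberg adjustment, and without clone 1 the log2 fold change was -1.41 and met the criterion, in the same fit that called 7.34% of genes lower.

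Of the serine hydroxymethyltransferases, the mitochondrial form was lower in every clone, and the cytosolic form was higher in every clone without passing the test. SHMT2 (ENSG00000182199, chromosome 12 from 57229327 to 57234935, plus strand), the mitochondrial form, had 971.6 CPM in parental cells, against 229.2 for clone 1, 293.9 for clone 6 and 300.9 for the library labelled clone 5. The clones lay close together, at 274.7 ± 39.6 CPM (SD, n = 3). The log2 fold change was -1.82 (standard error 0.33), with an adjusted p of 0.275 in edgeR after Benjamini-Hochberg adjustment and 0.000439 in DESeq2 (0.000439 to 0.739 over 11 alternatives). Unlike PSAT1, it was lowest in clone 1, where its log2 ratio to the parental library was -2.08, against -1.69 and -1.72 in the others.

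SHMT1 (ENSG00000176974, chromosome 17 from 18327860 to 18363563, minus strand), the cytosolic form, was the only enzyme of the 10 that was higher in every clone. It had 17.5 CPM in parental cells, against 40.0 for clone 1, 26.8 for clone 6 and 27.4 for the library labelled clone 5. The clone values averaged 31.4 ± 7.43 CPM (SD, n = 3). The fitted difference was 0.85 on the log2 scale (standard error 0.37), with an adjusted p of 0.484 in edgeR after Benjamini-Hochberg adjustment and 0.345 in DESeq2. SHMT1 did not meet the criterion, and its log2 ratio exceeded 1 in clone 1 alone, at 1.19.

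Among the mitochondrial folate enzymes, MTHFD2 (ENSG00000065911, chromosome 2 from 74198562 to 74217565, plus strand) encodes the dehydrogenase and cyclohydrolase that oxidises the carbon unit. It had 46788 counts in parental cells, against 14381 for clone 1, 7576 for clone 6 and 8513 for the library labelled clone 5. On the CPM scale these were, in the same order, 517.6, 125.4, 76.8 and 79.9. The clones lay 4.13-fold, 6.74-fold and 6.48-fold below the parental library. The log2 fold change was -2.46 (standard error 0.40), and the adjusted p was 0.275 in edgeR after Benjamini-Hochberg adjustment and 0.000191 in DESeq2 (0.000191 to 0.726 over 11 alternatives). The GENCODE 29 exons of MTHFD2 share 33.2% of their bases with genes on the opposite strand, mostly SLC4A5, and the strand setting of the counting is not given in the sources used here, so reads in those bases could not be assigned to one strand.

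MTHFD1L (ENSG00000120254, chromosome 6 from 150865549 to 151101887, plus strand) encodes the synthetase that releases formate in mitochondria. It had 77.2 CPM in parental cells, against 20.4 for clone 1, 12.8 for clone 6 and 14.9 for the library labelled clone 5. The clones formed a narrow group at 16.0 ± 3.95 CPM (SD, n = 3), far from the parental value. The fitted log2 fold change was -2.27 (standard error 0.37), with an adjusted p of 0.275 in edgeR after Benjamini-Hochberg adjustment and 0.00038 in DESeq2 (0.00038 to 0.726 over 11 alternatives). Its exons overlap no other annotated gene. The TGATGCAA and CACGTG shown in capitals above lie in 2 of its 4 annotated promoter windows.

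The remaining folate enzymes did not separate the clones from the parental library. MTHFD1 (ENSG00000100714, chromosome 14 from 64388031 to 64463457, plus strand), the cytosolic trifunctional enzyme, had 176.0 CPM in parental cells, against 439.4 for clone 1, 217.6 for clone 6 and 130.5 for the library labelled clone 5. Clone 1 was well above the other libraries, which included the parental one. Its log2 fold change was 0.58 (standard error 0.71, adjusted p = 0.783 in edgeR after Benjamini-Hochberg adjustment), and without clone 1 it was -0.014.

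MTHFD2L (ENSG00000163738, chromosome 4 from 74114174 to 74303099, plus strand), the mitochondrial relative of MTHFD2, had 15.8 CPM in parental cells, against 20.3 for clone 1, 10.5 for clone 6 and 7.66 for the library labelled clone 5. Clone 1 was again the highest of the clones, here above the parental library. The log2 fold change was -0.30 (standard error 0.64, adjusted p = 0.874 in edgeR after Benjamini-Hochberg adjustment). ALDH1L2 (ENSG00000136010, chromosome 12 from 105019784 to 105084577, minus strand), the mitochondrial formyl-folate dehydrogenase, was the least abundant, with 283 counts in parental cells, against 189 for clone 1, 567 for clone 6 and 334 for the library labelled clone 5. At 1.65 to 5.75 CPM it was the single member under 10 CPM in every library, and its clones lay on both sides of the parental value. Its log2 fold change was 0.16 (standard error 0.81) and became -0.39 without clone 6.

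**Figure D2:**
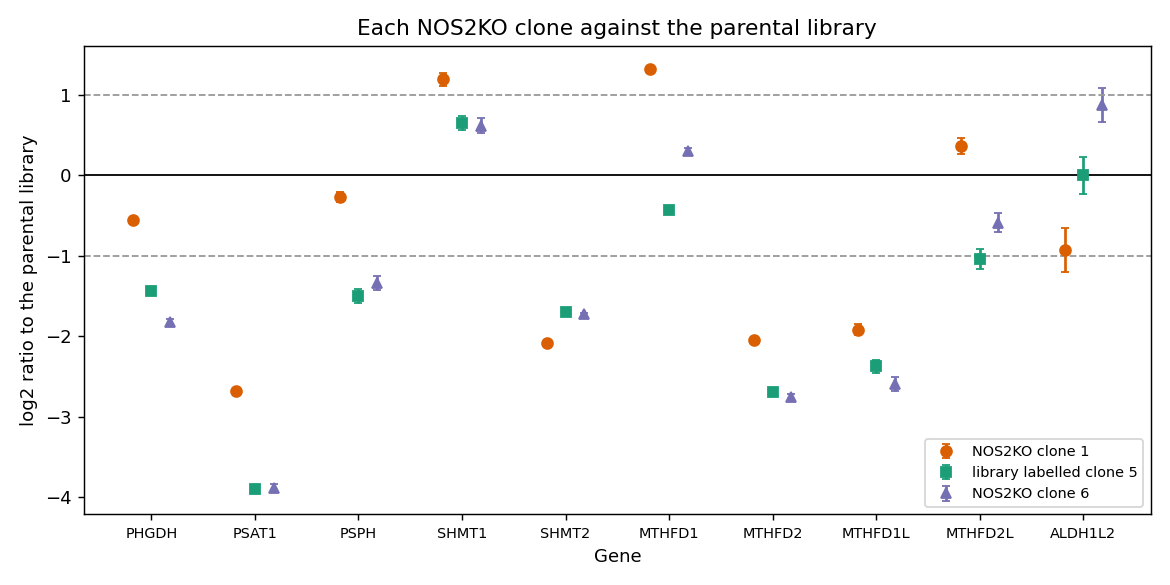
The log2 ratio of each NOS2KO clone to the single parental library for the 10 enzymes, with exact 95% intervals for counting error only (many are narrower than the symbols) and dashed lines at 1 and -1. All 3 clones lie below -1 for PSAT1, SHMT2, MTHFD2 and MTHFD1L, while clone 1 (circles) lies above the other clones for PHGDH, PSAT1 and PSPH and below them for SHMT2.

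Lower by more than 1 on the log2 scale in each of the 3 clones were the same 4 enzymes, beside 5.24% of the 10709 genes that reached 10 CPM. No enzyme was higher by that much in each clone, beside 4.26% of those genes. With a 1.5-fold limit in place of a 2-fold one, the same 4 enzymes were lower, beside 12.5% of those genes, and 1, SHMT1, was higher, beside 9.27%. These ratios share the parental library, so the agreement of the 3 clones is no replication of it.

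Clone 1 differed from the other clones in this pathway, as it did across the transcriptome. Clone 1 had more PSAT1 than the library labelled clone 5 and clone 6 had, by 1.22 and 1.21 on the log2 scale, and so were PSPH, by 1.23 and 1.07, and PHGDH, by 0.88 and 1.27. Among the folate enzymes, MTHFD1 exceeded the others by 1.75 and 1.01 in clone 1, and MTHFD2L by 1.41 and 0.95. In the opposite direction, ALDH1L2 was lower in clone 1 than in the others, with log2 ratios of -0.93 and -1.80, and SHMT2 likewise, with -0.39 and -0.36. Between the library labelled clone 5 and clone 6 no enzyme differed by more than 1, and the median absolute log2 ratio over the 10 was 0.19, against 0.24 over all genes that reached 10 CPM in that pair. Of the genes expressed at this level, 4.92% differed by more than 1 between those clones, while 16.1% and 15.9% did between clone 1 and each of them and 22.6% to 23.1% between a clone and the parental library. Each such ratio compares 1 library with 1 library and has no replicate check.

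Levels of different enzymes were compared per exon length, as TPM, a level per exon length scaled to a common total per library, computed here from the counts and the exon lengths in the files. In the parental library PSAT1 was the most abundant at 974.6 TPM, followed by SHMT2 at 760.8, MTHFD2 at 402.6 and PHGDH at 209.6. MTHFD1 (71.1 TPM), MTHFD1L (58.2) and PSPH (57.7) formed a middle group, and SHMT1 (9.09), MTHFD2L (6.09) and ALDH1L2 (1.39) were the least abundant. In all 3 clones SHMT2 came first, with a mean of 208.4 ± 47.6 TPM (SD, n = 3). It was followed by MTHFD1 at 98.0 ± 50.6, PSAT1 at 87.9 ± 38.1, PHGDH at 87.8 ± 34.0 and MTHFD2 at 69.2 ± 13.9 TPM. The ranges of the clones overlapped between neighbours in this order from MTHFD1 to MTHFD2. Such overlap ignores that levels are paired within a clone. PSAT1 was above MTHFD2 in clone 1 (131.8 against 84.6 TPM), in the library labelled clone 5 (68.7 against 65.4) and in clone 6 (63.3 against 57.5). The order of the other pairs among these 4 was not the same in every clone. The other neighbours did not overlap, but the gap was narrow between SHMT2 (155.6 TPM or more) and MTHFD1 (153.9 TPM or less). Below them came PSPH at 28.4 ± 11.4 TPM, SHMT1 at 15.5 ± 2.34, MTHFD1L at 11.5 ± 2.07, MTHFD2L at 4.60 ± 1.94 and ALDH1L2 at 1.52 ± 0.915, with 13.4 TPM both at the lower end of SHMT1 and at the upper end of MTHFD1L. SHMT1 lay below MTHFD1L in the parental library and above it in every clone.

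Summed over the 10 enzymes, the length-scaled level was 2551 TPM in parental cells, against 730.7 for clone 1, 534.9 for clone 6 and 572.6 for the library labelled clone 5. The 3 serine synthesis enzymes together made up 1242 TPM in the parental library and 142.3 to 297.7 TPM in the clones. The 5 mitochondrial enzymes summed to 1229 TPM in the parental library and 261.0 to 330.0 TPM in the clones. The cytosolic pair SHMT1 and MTHFD1 had 80.2 TPM in parental cells, against 171.9 for clone 1, 98.0 for clone 6 and 70.5 for the library labelled clone 5. The cytosolic pair therefore did not separate the groups, whereas the other sums did. Those sums were carried by genes already described as lower. In the parental library PSAT1 was 974.6 TPM of the serine synthesis sum, and SHMT2 and MTHFD2 were 760.8 and 402.6 TPM of the mitochondrial sum. MTHFD2L and ALDH1L2 had parental levels inside the range of the clones.

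Ratios between enzymes within a library do not depend on how libraries are scaled against each other. SHMT2 exceeded SHMT1 by 83.7-fold in the parental library, 8.63-fold in clone 1 and 16.5-fold in each of the others. MTHFD2 exceeded its relative MTHFD2L by 66.2-fold in the parental library and 12.4- to 21.0-fold in the clones. MTHFD1L stood at 0.819 of the level of MTHFD1 in the parental library, and at 0.0868, 0.214 and 0.110 of it in clone 1, the library labelled clone 5 and clone 6. All 3 ratios were thus lower in each clone than in the parental library. The counterpart of SHMT2 and of MTHFD1L is cytosolic, while MTHFD2L is mitochondrial like MTHFD2. The numerators, SHMT2, MTHFD2 and MTHFD1L, are enzymes already described as lower. Within serine synthesis, PSAT1 exceeded PHGDH by 4.65-fold in the parental library, and the ratio was 1.06, 0.839 and 1.11 in the clones. PSPH stood at 0.275 of PHGDH in the parental library and between 0.263 and 0.385 in the clones, so this ratio did not separate the groups. These ratios are descriptions, with no test.

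**Figure D3:**
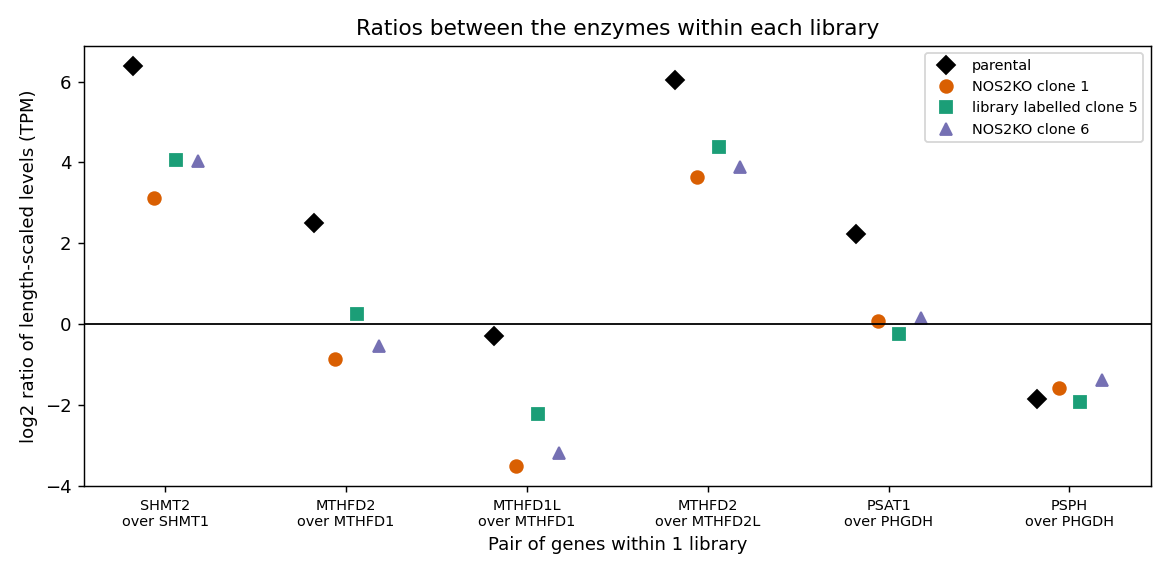
The log2 ratio of the length-scaled levels (TPM) of a pair of enzymes within each library, each point 1 library, with the line at 0 marking equal levels. The parental diamond lies above all 3 clones for every pair but PSPH over PHGDH, and SHMT2 over SHMT1 is 6.39 in the parental library against 3.11 to 4.05 in the clones.

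The genes whose 3 clone-to-parental log2 ratios lay nearest to those of PSAT1, among the 10709 genes that reached 10 CPM, were MAFF (a distance of 0.217), TMEM178B (0.315) and SOD2 (0.483), the mitochondrial superoxide dismutase. Nearest to SHMT2 were UHRF1BP1 (0.149), TNFRSF10D (0.157) and BCAT1 (0.170), a cytosolic aminotransferase of branched-chain amino acids. Nearest to MTHFD2 were ETV4 (0.164), SLC39A8 (0.170) and PLD6 (0.244). PHGDH had MEX3A (0.0432), SEC11C (0.107) and AFDN (0.179) as its nearest genes. The distance is the Euclidean one over 3 log2 ratios that share the parental library, and it was not tested.

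The pathways around these enzymes were read from 6 lists. Of their 53 genes tested by edgeR, 8 met the criterion of p and fold as lower and 3 as higher in the clones, beside 5.34% and 4.24% of all genes tested, and none had an adjusted p under 0.05 with edgeR. Without clone 1 these counts were 13 and 4, in a fit that called 7.34% of all genes lower and 8.18% higher. The methionine cycle and transsulfuration list had 4 of 12 genes tested lower, BHMT among them, and none higher, with a median log2 fold change of -0.59. CTH, cystathionine gamma-lyase, which forms cysteine, had 78.4 CPM in parental cells, against 6.39 for clone 1, 2.78 for clone 6 and 3.59 for the library labelled clone 5. Its log2 fold change was -4.20 (standard error 0.55), with an adjusted p of 0.259 in edgeR after Benjamini-Hochberg adjustment and 5.22e-08 in DESeq2. CBS, which joins serine to homocysteine in the step before CTH, was at 6.43 CPM in the parental library and 0.881 ± 0.616 in the clones (SD, n = 3). MTRR, the reductase that keeps methionine synthase active, was at 128.2 CPM and 53.7 ± 5.02. BHMT had 18 counts (0.199 CPM) in the parental library and none in the clones, at least 6.54-fold lower against a floor of 3 counts per library. It passed the expression filter through the parental library alone, so it could only be called lower. With a filter of at least 1 CPM in any library, BHMT was not tested and 7 pathway genes were called lower. With clone 6 left out, CBS did not meet the criterion.

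In the folate list of 13 genes tested, 1 was lower and 2 were higher by the criterion, around a median of -0.015 on the log2 scale. Of all genes tested, 5.34% were called lower and 4.24% higher. With clone 6 left out, GGH no longer met the criterion. The lower gene, SLC25A32, encodes the carrier that brings folate into mitochondria, and had 40.8 CPM in the parental library and 15.8 ± 0.774 in the clones (SD, n = 3), a log2 fold change of -1.37 (standard error 0.29). Higher was TYMS, thymidylate synthase, with 31.7 CPM in parental cells, against 280.0 for clone 1, 134.6 for clone 6 and 134.9 for the library labelled clone 5. GGH, which trims the glutamate tail of folates, was at 22.1 CPM and 46.6 ± 6.88. The log2 fold change of TYMS was 2.53 (standard error 0.54).

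Of 13 purine synthesis genes tested, GART and PPAT were lower by the criterion and none was higher (median log2 fold change -0.27). The criterion called 5.34% of all genes tested lower and 4.24% higher. With clone 6 or the library labelled clone 5 left out, PPAT no longer met it. GART, which uses formyl-folate, was at 219.9 CPM in the parental library and 95.3 ± 8.38 in the clones (SD, n = 3), and PPAT, the first enzyme of the pathway, at 86.3 and 40.0 ± 12.7. In the list of glycine cleavage and mitochondrial serine carriers, SFXN3, a sideroflexin of the family that carries serine into mitochondria, was the single gene of 7 to meet the criterion, at 34.0 CPM and 86.2 ± 19.2 (median log2 fold change 0.18). None of 5 tested genes of serine and glycine breakdown and racemization met it (median -0.31), and the most abundant were SDSL, at 21.3 CPM in the parental library and 17.2 ± 8.16 in the clones, and SRR, at 9.04 and 7.31 ± 2.12.

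Of the 3 transcription factors, ATF4 and NFE2L2 were lower in every clone, as were 30.5% of all genes tested. ATF4 alone met the criterion, which called 5.34% of all genes tested lower. ATF4 was measured at 593.2 CPM in parental cells, against 157.1 for clone 1, 273.5 for clone 6 and 248.1 for the library labelled clone 5. It had a log2 fold change of -1.39 with a standard error of 0.42, and its adjusted p was 0.352 in edgeR after Benjamini-Hochberg adjustment and 0.0847 in DESeq2. Its lowest level was in clone 1, where SHMT2 and ALDH1L2 were also lowest. The other enzymes of the set, MTHFD2 and MTHFD1L among them, were highest in clone 1 among the clones. A link between ATF4 and these levels was not tested. MYC had 604.4 CPM in parental cells, against 672.2 for clone 1, 220.0 for clone 6 and 129.0 for the library labelled clone 5, a log2 fold change of -0.83 (standard error 0.96). NFE2L2 was at 181.5 CPM in parental cells and 119.4 to 140.1 CPM in the clones, which differed by -0.50 on the log2 scale (standard error 0.28).

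**Figure D4:**
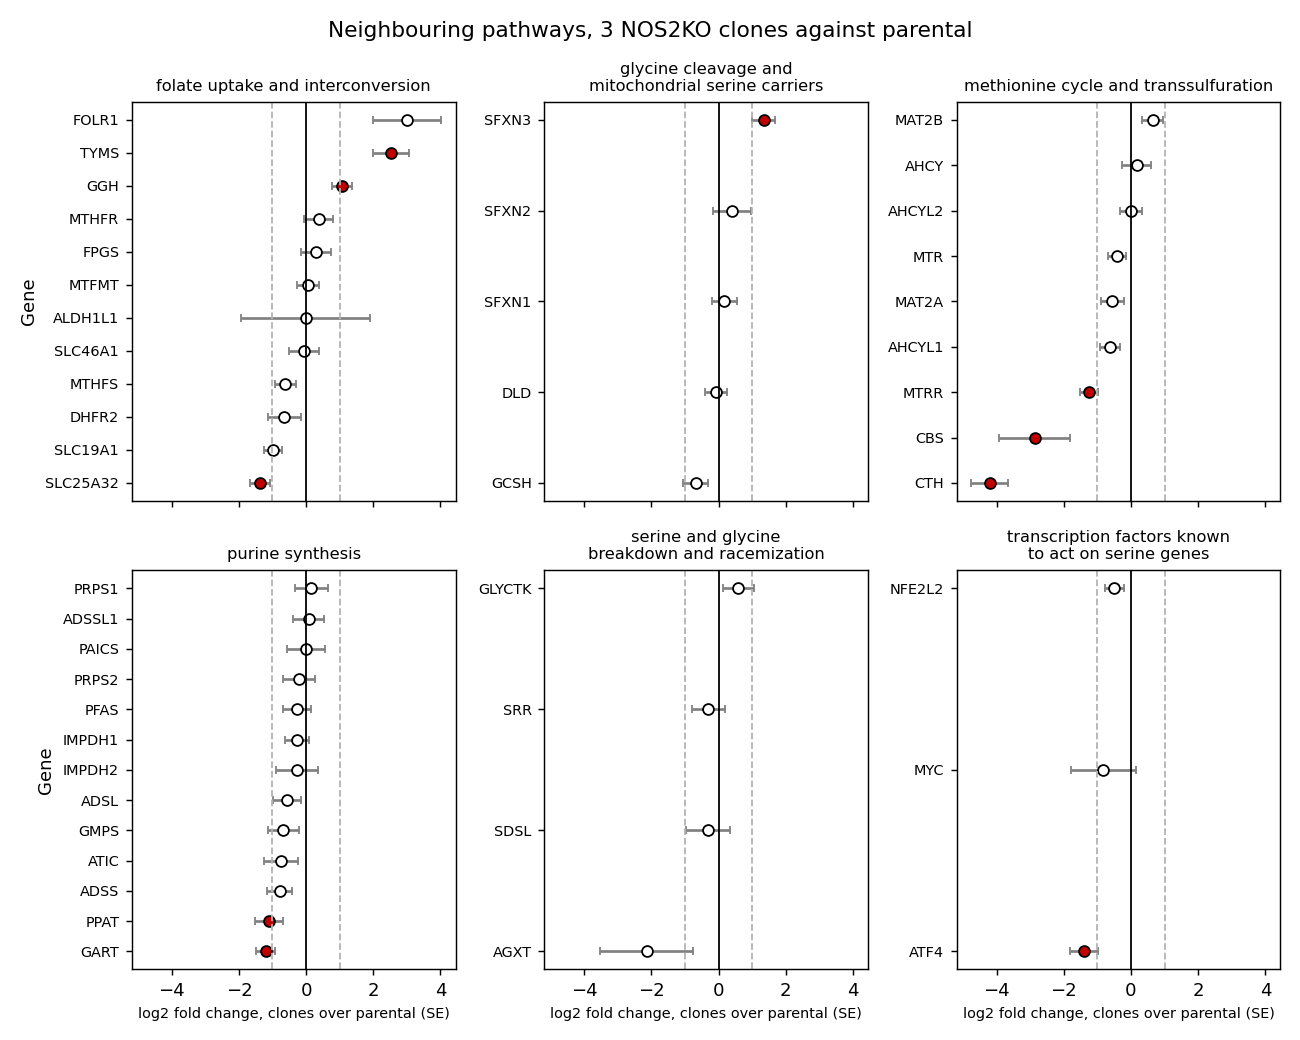
The log2 fold change of the 3 NOS2KO clones against the parental library, with its standard error, for genes of 6 neighbouring lists that were tested and had a mean of at least 1 CPM over the libraries. Red points passed both limits of the criterion, p below 0.05 without adjustment and a change beyond the dashed lines at 1 and -1, among them CTH at -4.20, TYMS at 2.53 and ATF4 at -1.39.

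Copies that could share reads with the enzymes carried few counts. Of 14 annotated pseudogenes of these genes, 8 had no count in any library and the highest had 57 counts, at most 0.752% of the counts of its parent gene. Overlap of exons with genes on the opposite strand was 11.0% of the exon bases for MTHFD1, 9.51% for SHMT2 and under 3% for the remaining genes apart from MTHFD2, and it was 0 for PHGDH, PSAT1, PSPH and MTHFD1L.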

How the data were processed

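RNA-sequencing of 1 parental SUM159 library and of 3 NOS2KO clones was analysed. Per the labels, libraries came from poly(A)-enriched RNA (NEBNext Ultra II) and were sequenced from both ends. The submitters' processing notes name bcl2fastq 2.17, Trimmomatic 0.36, STAR 2.5.2b, featureCounts from Subread 1.5.2, DESeq2 with no version given, and the build GRCh38. The deposited files give unnormalized read counts for each gene, with its position and exon length. How reads with several matches were counted is not given in the sources used here. Of 57500 identifiers, 56898 had a GENCODE 29 symbol. Coordinates are those of the files, and those of PHGDH differ from GENCODE 29.

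Tests were run with edgeR 4.0.16 under R 4.3.3 (expression filter by group, TMM scaling, quasi-likelihood test), adjusting p by Benjamini-Hochberg across the 22511 genes that passed the filter, all 10 enzymes among them. The common dispersion was 0.319, with 2 residual and 2.75 prior degrees of freedom. DESeq2 1.42.0 was an alternative. The labels do not say whether the clones came from separate transfections, so p-values measure only the spread between these libraries. The floor of 3 counts equals between 0.0262 and 0.0332 CPM, and intervals and floors cover counting error only. Both count tests and the intervals were tested on simulated data. Other steps used Python 3.11.15, pandas 2.3.3, numpy 2.4.6, scipy 1.17.1 and matplotlib 3.10.9.

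The enzymes and the lists around them were chosen with earlier results of these data known. Named from each list were the genes that met the criterion of p and fold, up to 4 by the size of the log2 fold change, or otherwise the 2 most abundant. Of the lists, 2 genes are not reported here and were left out of their counts. PTPRC was named after its values were seen. Alternatives were 3 other scalings, other filters, DESeq2, robust estimation, other limits and each clone left out or used alone. Promoters came from RefSeq (GRCh38.p14), and protein sequences were not used here.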

Additional observations from a re-analysis of the deposited data

How the results depend on the processing

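PSAT1, SHMT2, MTHFD2 and MTHFD1L met the criterion of p and fold as lower under every scaling, filter, test and left-out clone that was run, and without clone 1 PHGDH and PSPH joined them, which made 6. Over all genes the share called lower by this criterion was 5.34% as reported, 7.34% without clone 1 and 3.68% to 6.18% under the others. At an adjusted p under 0.05, edgeR called 0 of the 10 and DESeq2 called 4, while over all genes edgeR called 1 of 22511 and DESeq2 called 1113 of 17273. With a 1.5-fold limit 1 enzyme, SHMT1, was higher in all clones, beside 9.27% of genes that reached 10 CPM. With each clone left out, the median log2 fold change of the 10 ran from -1.51 (without clone 1) to -0.83, and the other pathway genes called lower numbered from 7 to 13, with 13 without clone 1. MTHFD1 ran from -0.014, without clone 1, to 0.92, and ALDH1L2 from -0.39, without clone 6, to 0.51, and the causes were not tested. The bias-adjusted quasi-likelihood method was chosen after seeing the data and called the same 4. No paired analysis was possible because there was only 1 parental library. The spread of parental cells was not measured. Depth gives the widest counting interval to ALDH1L2, whose log2 ratio for clone 1 had limits of -1.20 and -0.66.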

Other observations

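MTAP, the enzyme of the methionine salvage pathway, had 1 count in the parental library and none in the clones, so no fold is given. PTPRC, a leukocyte surface phosphatase, had 4.45 CPM in parental cells, against 68.4 for clone 1, 41.7 for clone 6 and 105.4 for the library labelled clone 5, while CD3E had at most 8 counts in any library.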
